A study of Mus musculus with 4 samples.

Results

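The 10 genes described here encode secreted cytokines and 1 secreted cytokine antagonist: Il6, Lif and Osm of the IL-6 family, Il4 and Il13, Tnf, Il1a, Il1b, Il1rn and Tgfb1. They were taken by name, and all 10 were among the 14323 genes of the deposited table. RNA was sequenced from 4 colony cultures of C57BL/6 mouse progenitors, 1 library per culture: MPP2 cells with 4OHT, MPP2 cells with EtOH, ST-HSCs with 4OHT and ST-HSCs with EtOH. MPP2 cells are multipotent progenitors and ST-HSCs are short-term haematopoietic stem cells. The cultures with 4-hydroxytamoxifen (4OHT, 0.05 µM) were induced to express MLL-ENL, a leukaemia fusion of a histone methyltransferase with a partner from the transcription elongation machinery, and those with ethanol (EtOH), the solvent of 4OHT, were the controls. Both arms came from a model mouse with conditional MLL-ENL expression, and the promoter or cell type that drives it, the age and the sex are not stated in these sources. Each culture began with 100 cells in methylcellulose and ran for 5 to 7 days. SCF was present in all 4 cultures at 25 ng/ml, and IL-6, IL-3 and GM-CSF at 10 ng/ml each, so IL-6 protein was supplied to every culture while the values below are the cells' own Il6 mRNA.

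Cytokines of the IL-6 family signal through receptors that share gp130, encoded by Il6st, and activate JAK kinases and STAT3. IL-4 and IL-13 share the receptor chain IL-4Ra and act through STAT6, and among myeloid cells mast cells and basophils are well-known sources of both. TNF and the IL-1 agonists act through NF-kB, which in turn drives many cytokine and chemokine genes, while IL-1Ra, the product of Il1rn, occupies the IL-1 receptor without signalling. TGF-beta1 is secreted in a latent form and limits the growth of haematopoietic progenitors.

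The libraries of MPP2 cells with 4OHT and EtOH and of ST-HSCs with 4OHT and EtOH held 12907412, 13705519, 13647704 and 14317891 reads. The values are normalized counts, that is, reads divided by an effective library size, and 1 read is worth 0.0802, 0.0722, 0.0719 and 0.0695 normalized counts in those libraries. With 1 library per group a difference between 2 cultures has no replicate check, so it is given with an exact 95% interval that covers counting error only and carries no p-value. Calls of higher and lower mean a difference of 2-fold or beyond after 0.5 was added to each normalized count, and they were made for the 11370 genes whose mean over the libraries reached 1. All 10 cytokine genes passed that minimum, Il4 and Il13 only through the MPP2 EtOH library. The ribosomal precursor Rn45s took 4.82% of reads in the MPP2 EtOH library and 6.75% to 7.39% in the others. Progenitor markers stood low in these colony cells: Flt3 was at or under 0.862 normalized counts in all 4 libraries, Slamf1 (CD150, a marker of MPP2 cells) was at 2.49 and 3.17 in the MPP2 cultures and at 0 in both ST-HSC cultures, and Kit was between 76.4 and 92.9. The mouse counterparts of the fusion partners, Kmt2a and Mllt1, were at 72.1 to 91.1 and 50.9 to 62.7 normalized counts, and reads of the fusion itself were not analysed here.

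Per kilobase of transcript, averaged over the 4 libraries, Tgfb1 had the highest level of the 10 genes at 194 normalized counts per kb. Tnf followed at 89.9, Il1rn at 62.6 and Osm at 56.4 normalized counts per kb. The other 6 genes lay far below, with Il1b at 12.7, Il1a at 8.51, Il6 at 7.36, Lif at 4.07, Il13 at 3.08 and Il4 at 3.06 normalized counts per kb. The range between libraries was widest for Il6, Lif, Il13 and Il4, all among the scarcer 6. It did not follow the level throughout. The highest library over the lowest was 5.88-fold for the abundant Il1rn and 5.80-fold for Il1a, 2.95-fold for Il1b and 2.78-fold for Osm. The highest library stood above the lowest by 34.4-fold for Il6 (95% counting interval 22.8 to 54.7) and 11.8-fold for Lif (8.95 to 15.8), but by 1.77-fold for Tnf and 1.30-fold for Tgfb1. For Il13 (81.3-fold, 22.2 to 677) and Il4 (29.5-fold, 9.75 to 146) the lowest library held 2 and 3 reads, so their place beside Il6 is not resolved. Of all reads from the 10 genes, Il6 took 0.689% and 4.60% in the MPP2 4OHT and EtOH libraries, and 0.217% and 0.476% in the ST-HSC 4OHT and EtOH libraries.

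**Figure D1:**
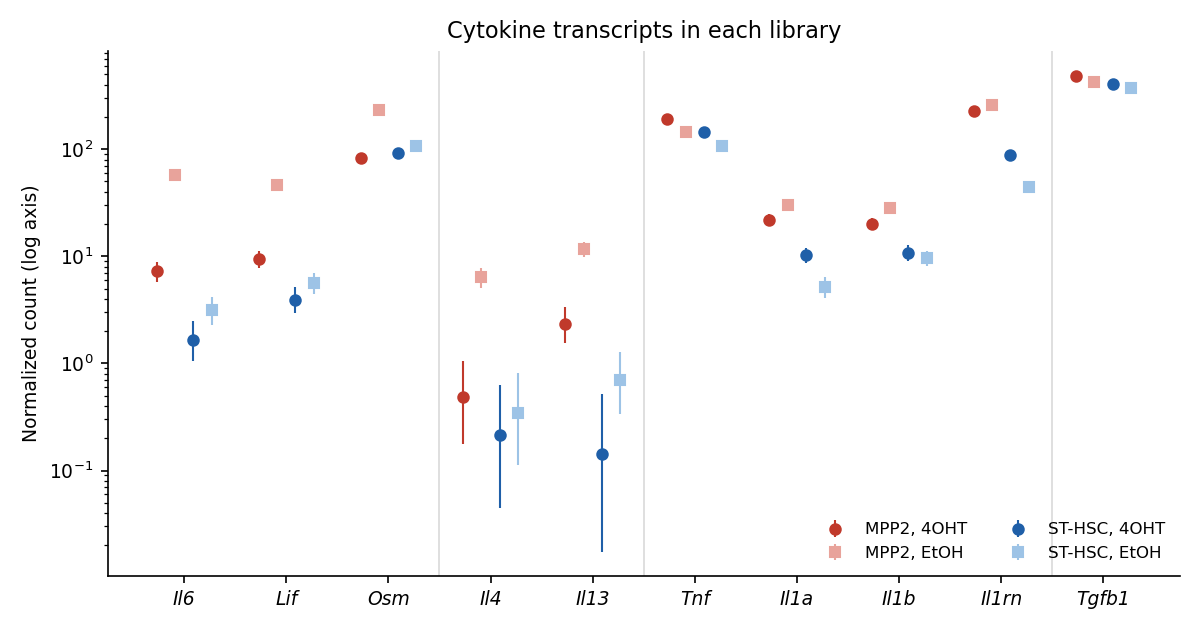
Normalized count of each of the 10 cytokine genes (log axis) in the 4 libraries, with exact 95% counting intervals as bars; each point is 1 library. Il6, Lif, Osm, Il4, Il13, Il1a, Il1b and Il1rn peak in the MPP2 EtOH library, where Il6 reaches 56.9, and Tgfb1 stays between 373 and 486.

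The short stretch before the transcription start is shown for Il6, Lif, Il4 and Il13, the genes with the largest range, and for Tnf, which had a narrow one. Each is the 250 bases before the first RefSeq start (GRCm38.p6), on the strand of the gene, with motif matches in capitals. The windows are at chr5:30012864-30013113 (plus strand) for Il6, chr11:4257318-4257567 (plus) for Lif, chr11:53618666-53618915 (minus) for Il4, chr11:53634703-53634952 (minus) for Il13 and chr17:35202008-35202257 (minus) for Tnf.
Il6: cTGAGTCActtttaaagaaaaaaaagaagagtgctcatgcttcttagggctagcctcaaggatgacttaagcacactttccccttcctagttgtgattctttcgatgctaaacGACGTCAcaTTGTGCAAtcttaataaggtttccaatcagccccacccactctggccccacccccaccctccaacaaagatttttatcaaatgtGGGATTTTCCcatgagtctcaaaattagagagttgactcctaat
Lif: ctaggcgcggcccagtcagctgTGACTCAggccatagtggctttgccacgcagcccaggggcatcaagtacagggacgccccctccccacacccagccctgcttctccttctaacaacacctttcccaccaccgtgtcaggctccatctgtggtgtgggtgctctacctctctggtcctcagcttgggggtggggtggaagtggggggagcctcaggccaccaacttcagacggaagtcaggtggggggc
Il4: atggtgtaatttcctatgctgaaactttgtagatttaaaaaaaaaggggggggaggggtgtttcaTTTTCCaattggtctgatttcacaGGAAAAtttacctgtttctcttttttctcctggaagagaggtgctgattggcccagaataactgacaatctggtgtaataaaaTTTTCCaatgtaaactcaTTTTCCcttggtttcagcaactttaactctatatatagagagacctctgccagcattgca
Il13: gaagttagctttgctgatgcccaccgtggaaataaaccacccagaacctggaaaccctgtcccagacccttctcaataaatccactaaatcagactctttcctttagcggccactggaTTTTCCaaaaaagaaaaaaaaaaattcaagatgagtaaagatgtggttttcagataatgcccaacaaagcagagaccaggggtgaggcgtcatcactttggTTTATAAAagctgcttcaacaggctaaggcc
Tnf: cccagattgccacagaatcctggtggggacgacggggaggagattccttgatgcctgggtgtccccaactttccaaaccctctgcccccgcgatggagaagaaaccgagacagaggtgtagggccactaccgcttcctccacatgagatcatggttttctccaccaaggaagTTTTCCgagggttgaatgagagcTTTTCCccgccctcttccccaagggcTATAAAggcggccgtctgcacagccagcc
The motifs searched, on both strands, were NF-kB (3 G, any 2 bases, 3 T, 2 C), CRE (GACGTCA), C/EBP (TTGNGCAA), AP-1 (TGANTCA), NFAT (TTTTCC) and the TATA box (TATAAA). Among all 32851 windows of this length they were found in 1.41%, 2.78%, 2.61%, 6.75%, 20.4% and 12.4%. Among the 13668 windows of genes measured here the shares were 1.54%, 4.46%, 2.25%, 4.81%, 18.6% and 6.71%. The Il6 window holds an NF-kB match 44 to 35 bases before the start, C/EBP at 128 to 121, CRE at 137 to 131 and AP-1 at 249 to 243, and its NFAT match lies inside the NF-kB match. The Il4 window holds 4 NFAT matches, that of Il13 1 NFAT and 2 overlapping TATA matches, that of Tnf 2 NFAT and 1 TATA match, and that of Lif 1 AP-1 match. A match describes these letters only, and binding was not measured. In all, 9 of the 10 genes had a window, and Osm had none.

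The first question of the design was what the induced cultures express compared with their own controls. In MPP2 cultures 5 of the 10 cytokine genes were at least 2-fold lower with 4OHT (Il6, Il4, Il13, Lif and Osm) and 0 were at least 2-fold higher, where 1.7% of all tested genes were lower and 1.32% higher. The median log2 difference was -0.98 over the 10 genes and -0.002 over all tested genes. Il4 and Il13 reached the minimum level only because they were high in the MPP2 EtOH library, so their lower level with 4OHT is no independent support. Of the other 8 genes, 3 were lower and the median was -0.46. In ST-HSC cultures 0 of 10 were at least 2-fold lower and 1, Il1rn, was higher, with a median log2 difference of -0.05, where 0.545% of all genes were lower and 2.1% higher. In bulk RNA such as this, fewer cells of a type and less RNA per cell cannot be told apart.

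Il6 (ENSMUSG00000025746, chr5:30013114-30019981, plus strand), an acute-phase and plasma cell factor made by many cell types, had 7.22 normalized counts with 4OHT, against 56.9 with EtOH, in MPP2 cultures. In ST-HSC cultures it had 1.65 with 4OHT and 3.13 with EtOH. Only the MPP2 EtOH library was high, and Il6 was lower with 4OHT in both cell types. These levels rest on 90 and 789 reads in MPP2 cells with 4OHT and EtOH, and on 23 and 45 reads in ST-HSC cells with 4OHT and EtOH. The 4OHT over EtOH ratio was 0.127 in MPP2 cultures (95% counting interval 0.101 to 0.158), a 7.88-fold lower level, and 0.528 in ST-HSC cultures (0.305 to 0.892). By log2 difference Il6 was the 5th lowest of 11370 genes in the MPP2 comparison and the 148th lowest in the ST-HSC comparison. Within 1 library, where scaling cancels, there were 0.0379 Il6 reads per Tnf read in MPP2 cells with 4OHT and 0.392 with EtOH, and 0.0113 and 0.0290 in ST-HSC cells with 4OHT and EtOH.

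Lif (chr11:4257557-4272514, plus strand), the leukaemia inhibitory factor that sustains mouse embryonic stem cells, had 9.39 normalized counts with 4OHT and 46.6 with EtOH in MPP2 cultures. It had 3.95 with 4OHT and 5.63 with EtOH in ST-HSC cultures. The pattern was that of Il6, with 1 high library. The ratio was 0.201 in MPP2 cultures (0.164 to 0.246) and 0.702 in ST-HSC cultures, where the interval (0.489 to 1.00) reached 1.

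Osm (chr11:4236420-4241026, plus strand) encodes oncostatin M and lies 16530 bases from Lif, with no coding gene between them. It was more abundant than its neighbour, with 82.9 normalized counts in MPP2 cells with 4OHT and 230.7 with EtOH. In ST-HSC cells it had 91.3 with 4OHT and 108 with EtOH. Osm was high in the MPP2 EtOH library and lay between 82.9 and 108 in the other 3. The ratio was 0.359 in MPP2 cultures (0.335 to 0.385) and 0.845 in ST-HSC cultures (0.784 to 0.911). Lif reads per Osm read came to 0.113 and 0.202 in MPP2 cells with 4OHT and EtOH, and to 0.0433 and 0.0521 in ST-HSC cells with 4OHT and EtOH.

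Il4 and Il13, the cytokines of type 2 immunity, lie 12654 bases apart on chromosome 11, at chr11:53602982-53618669 and chr11:53631324-53634702, both on the minus strand, with no coding gene between them. Il4 had 0.481 normalized counts (6 reads) with 4OHT and 6.35 (88 reads) with EtOH in MPP2 cultures. In ST-HSC cultures it had 0.216 (3 reads) with 4OHT and 0.348 (5 reads) with EtOH, at or just above the level of 3 reads. The MPP2 EtOH library was thus the only one with more than a few Il4 reads. The ratio was 0.0758 in MPP2 cultures (0.0271 to 0.172), a 13.2-fold lower level, and in ST-HSC cultures the interval of 0.0963 to 3.19 around 0.620 shows no difference detectable at this depth.

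Il13 had 2.33 normalized counts (29 reads) with 4OHT and 11.7 (162 reads) with EtOH in MPP2 cultures. In ST-HSC cultures it had 0.144 (2 reads) with 4OHT and 0.695 (10 reads) with EtOH. It was lower with 4OHT in both cell types. The ratio was 0.199 in MPP2 cultures (0.129 to 0.297) and 0.207 in ST-HSC cultures, with a wide interval of 0.0220 to 0.970. The log2 difference of -0.89 in ST-HSC cultures is smaller than that ratio because of the added constant, and with 0.1 added it is -1.71, past the 2-fold line.

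**Figure D2:**
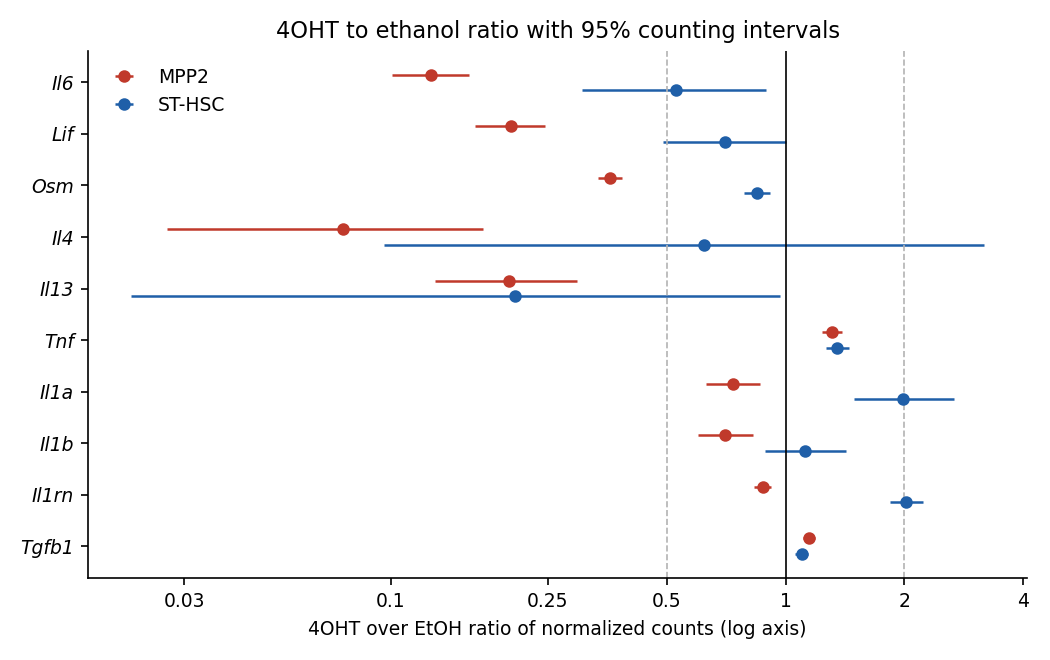
Ratio of 4OHT over EtOH (log axis) for each cytokine gene in MPP2 and ST-HSC cultures, with exact 95% counting intervals and a line at 1. Il6, Il4, Il13, Lif and Osm lie below 0.5 in MPP2 cultures, Il4 lowest at 0.0758, and Tnf lies above 1 in both cell types, at 1.31 and 1.35.

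Tnf (chr17:35199381-35202007, minus strand), a principal inflammatory cytokine of macrophages, was higher with 4OHT in both cell types. It had 190.5 normalized counts with 4OHT and 145 with EtOH in MPP2 cultures. In ST-HSC cultures it had 146 with 4OHT and 108 with EtOH. Both induced cultures stood above their controls, by 1.31-fold (1.23 to 1.39) in MPP2 and 1.35-fold (1.26 to 1.45) in ST-HSC cultures.

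Il1a and Il1b encode the IL-1 agonists and lie 54597 bases apart on the minus strand of chromosome 2, at chr2:129299610-129309972 and chr2:129364570-129371139. Il1a had 21.98 normalized counts with 4OHT and 29.9 with EtOH in MPP2 cultures, and 10.2 with 4OHT and 5.15 with EtOH in ST-HSC cultures. Il1b had 19.98 with 4OHT and 28.4 with EtOH in MPP2 cultures, and 10.8 with 4OHT and 9.60 with EtOH in ST-HSC cultures. Both genes were lower with 4OHT in MPP2 cultures, at ratios of 0.736 (0.629 to 0.859) and 0.704 (0.599 to 0.828). With a trend with GC content removed, the MPP2 log2 difference of -0.43 for Il1a shrank to -0.12, while that of Il1b was -0.49 before and -0.41 after. In ST-HSC cultures the Il1a ratio was 1.98 (1.49 to 2.66) and the Il1b ratio was 1.12 (0.885 to 1.43), an interval that includes 1. The non-coding genes Gm14023 and Il1bos overlap Il1a and Il1b on the opposite strand, and Gm14023 shares 10.0% of the 31-base words of Il1a, so reads could be split between them; the kit marks strand, but the strand setting used in counting is not given in the sources used here.

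Il1rn (chr2:24336853-24351494, plus strand), the antagonist, was the most abundant of the IL-1 genes. It had 227 normalized counts with 4OHT and 259 with EtOH in MPP2 cultures. In ST-HSC cultures it had 89.2 with 4OHT and 44.1 with EtOH. The ratio was 0.876 in MPP2 cultures (0.833 to 0.920) and 2.02 in ST-HSC cultures (1.84 to 2.23), just past the 2-fold line, with Il1a just inside it at a log2 difference of 0.92. The MPP2 log2 difference of -0.19 for Il1rn was -0.04 with the GC trend removed. Reads of Il1rn per read of Il1a plus Il1b numbered 5.41 and 4.45 in MPP2 cells with 4OHT and EtOH, and 4.25 and 2.99 in ST-HSC cells with 4OHT and EtOH, so antagonist reads outnumbered agonist reads in all 4 libraries.

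Tgfb1 (chr7:25687002-25705077, plus strand) had the steadiest level of the 10. It had 486 normalized counts with 4OHT and 423 with EtOH in MPP2 cultures, and 410.1 with 4OHT and 373 with EtOH in ST-HSC cultures. The ratios were 1.15 (1.11 to 1.19) and 1.10 (1.06 to 1.14). Small differences of this size depend on scaling: the log2 difference in MPP2 cultures was 0.20, and it was -0.01 once a trend with GC content was removed. Tgfb1 took 46.4% and 34.2% of their reads in MPP2 cells with 4OHT and EtOH, and 53.7% and 56.8% in ST-HSC cells with 4OHT and EtOH.

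**Figure D3:**
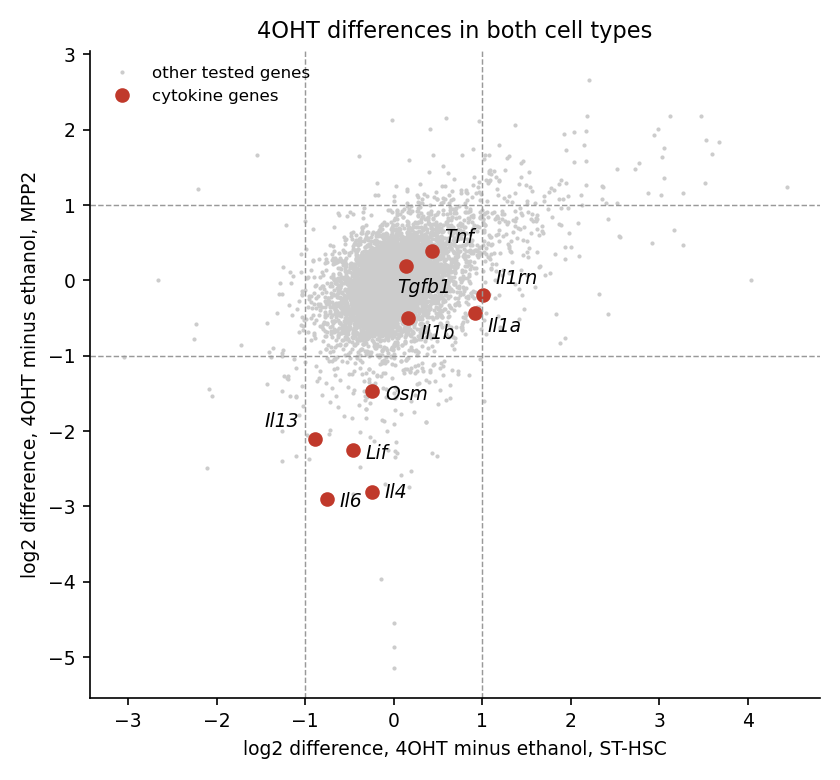
Log2 difference of 4OHT over EtOH in MPP2 cultures (vertical axis) against that in ST-HSC cultures (horizontal axis), with the 10 cytokine genes in red, all other tested genes in grey and dashed lines at the 2-fold limits. Il6, Il4, Il13, Lif and Osm lie below the lower MPP2 limit, at -2.90 to -1.47, and Il1rn, at 1.01, is just past the upper ST-HSC limit.

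Markers of mast cells and basophils, cells known to make IL-4, IL-13 and IL-6, were followed as a list of 16 genes, 15 of them in the table. Their summed level was 681 normalized counts with 4OHT and 1909 with EtOH in MPP2 cultures, a ratio of 0.357, and 182 with 4OHT and 242 with EtOH in ST-HSC cultures, a ratio of 0.750. Kit, which progenitors also express and which was not lower with 4OHT, is on this list, and without it the sums were 590.1 with 4OHT and 1825 with EtOH in MPP2 cultures (ratio 0.323), and 88.7 with 4OHT and 166 with EtOH in ST-HSC cultures (ratio 0.535). Of the 13 tested, 10 were at least 2-fold lower with 4OHT in MPP2 cultures and 6 in ST-HSC cultures, and 0 were higher in either. Of all tested genes, 1.7% were lower in MPP2 cultures and 0.545% in ST-HSC cultures. Mcpt2 and Tpsb2, both among the 10, reached the minimum level only through the MPP2 EtOH library. Their lower level with 4OHT in MPP2 cultures is thus no independent support. All 15 had reads in both MPP2 libraries. In ST-HSC cells the proteases Mcpt4, Mcpt1, Cma1 and Tpsb2 were at 0 with 4OHT, and Mcpt4 and Tpsb2 were at 0 with EtOH.

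The granule protease Cpa3 had 70.9 normalized counts with 4OHT and 293 with EtOH in MPP2 cultures, and 11.5 with 4OHT and 19.5 with EtOH in ST-HSC cultures. The basophil protease Mcpt8 had 123 with 4OHT and 428 with EtOH in MPP2 cultures, and 21.6 with 4OHT and 45.8 with EtOH in ST-HSC cultures. Gzmb, a serine protease that mouse mast cells also express, had 18.9 with 4OHT and 109 with EtOH in MPP2 cultures, and 0.647 with 4OHT and 4.45 with EtOH in ST-HSC cultures. These 3 genes stood highest in MPP2 EtOH, as Il6 did. Mcpt2, another granule protease, had 2.73 with 4OHT and 15.7 with EtOH in MPP2 cultures, and 0.216 with 4OHT and 1.04 with EtOH in ST-HSC cultures. Prss34, a basophil protease, had 95.2 with 4OHT and 174 with EtOH in MPP2 cultures, and 4.17 with 4OHT and 14.95 with EtOH in ST-HSC cultures. Il6 reads per Cpa3 read were 0.102 and 0.194 in MPP2 cells with 4OHT and EtOH, and 0.144 and 0.161 in ST-HSC cells with 4OHT and EtOH. Their part in the cytokine differences was not tested.

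Other lineages moved in both directions. Beside the counts below, 1.32% of all tested genes were higher and 1.7% lower in MPP2 cultures. In ST-HSC cultures 2.1% were higher and 0.545% lower. Monocyte and macrophage markers summed to 6327 with 4OHT and 4281 with EtOH in MPP2 cultures, and to 4238 with 4OHT and 2962 with EtOH in ST-HSC cultures, with 5 and 3 of 12 genes at least 2-fold higher, among them Mrc1, the mannose receptor, and Gpnmb. Csf1r, the receptor of the macrophage growth factor M-CSF, had 128 with 4OHT and 54.2 with EtOH in MPP2 cultures, and 129.6 with 4OHT and 66.97 with EtOH in ST-HSC cultures. Fcgr1 had 33.2 with 4OHT and 16.1 with EtOH in MPP2 cultures, and 31.8 with 4OHT and 21.7 with EtOH in ST-HSC cultures. Gpnmb had 731 with 4OHT and 243 with EtOH in MPP2 cultures, and 293 with 4OHT and 64.7 with EtOH in ST-HSC cultures. Lyz2, the macrophage lysozyme and the most abundant of the list, stood at log2 differences of 0.71 and 0.79 in MPP2 and ST-HSC cultures, with 32.8% of its 31-base words shared with other genes. Eosinophil markers summed to 108 with 4OHT and 216 with EtOH in MPP2 cultures and to 31.8 with 4OHT and 34.3 with EtOH in ST-HSC cultures. Their granule genes Epx and Prg2 had log2 differences of -1.16 and -1.03 in MPP2 cultures, and of -0.38 and 0.16 in ST-HSC cultures. Erythroid and megakaryocyte markers had 5 of 12 genes lower in MPP2 cultures, and 0 in ST-HSC cultures. The haemoglobin genes Hba-a1, Hba-a2, Hbb-b1 and Hbb-bt were among the 5, and reads are uncertain between the similar Hba copies and between the similar Hbb copies. Hbb-b1 had 1.28 normalized counts with 4OHT and 41.2 with EtOH in MPP2 cultures and was at 0 in both ST-HSC libraries. Tfrc, the transferrin receptor and the most abundant of that list, had log2 differences of -0.52 and -0.40 in MPP2 and ST-HSC cultures. Neutrophil markers had 0 of 11 past 2-fold in either comparison. Their summed level had a 4OHT over EtOH ratio of 0.989 in MPP2 and 0.757 in ST-HSC cultures. In ST-HSC cultures 9 of the 11 were lower with 4OHT and 2 higher, with a median log2 difference of -0.37. S100a9, the most abundant, had log2 differences of -0.06 and -0.49 in MPP2 and ST-HSC cultures. T and innate lymphoid markers had 5 of 14 genes in the table, summing to 61.6 with 4OHT and 63.2 with EtOH in MPP2 cultures, and to 51.7 with 4OHT and 28.4 with EtOH in ST-HSC cultures. Of these, Thy1 and Il7r, the IL-7 receptor, were the 2 tested, with log2 differences of 0.04 and -0.19 in MPP2 cultures and of 0.83 and 1.19 in ST-HSC cultures. Whether these lineages contribute to the cytokine levels was not tested.

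**Figure D4:**
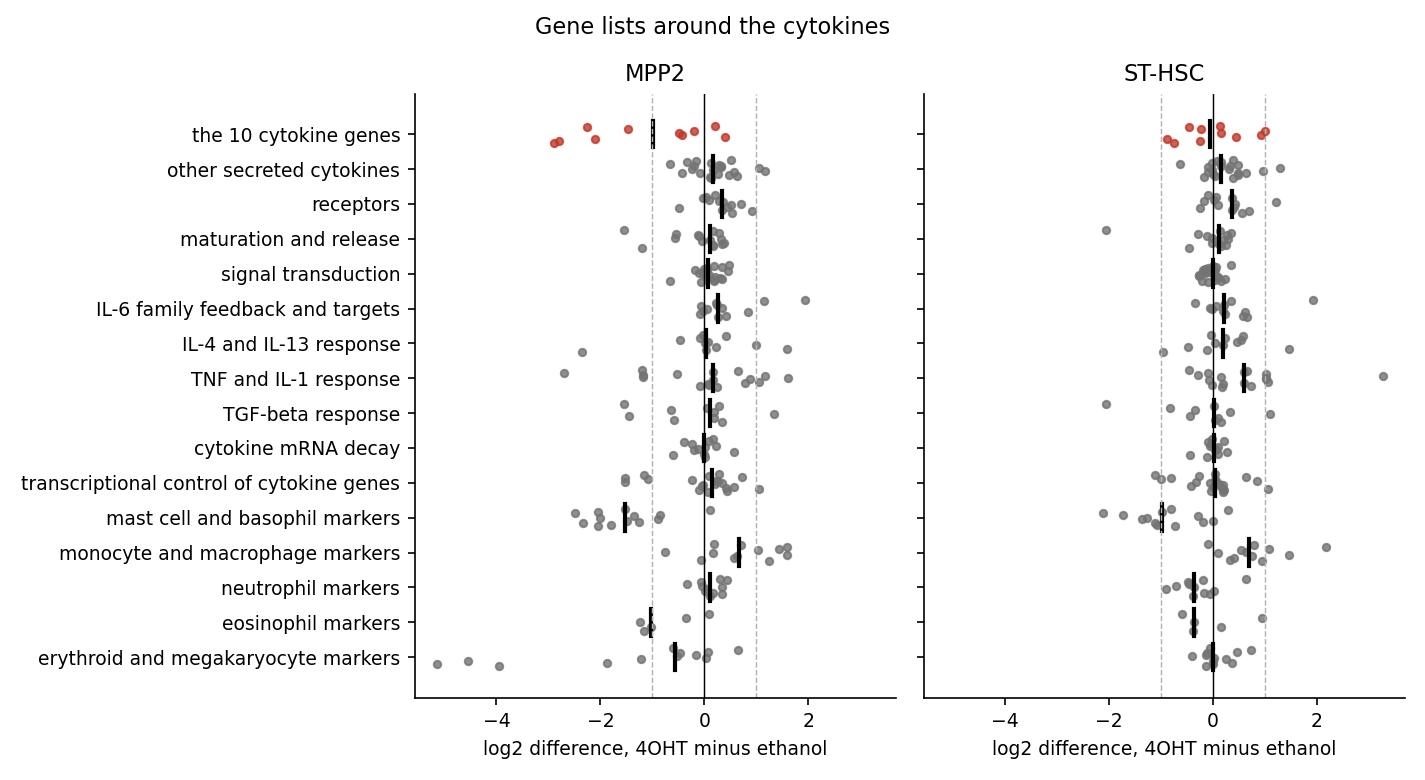
Log2 difference of 4OHT over EtOH in MPP2 and ST-HSC cultures for the tested genes of each list, 1 point per gene, with a black bar at the list median and dashed lines at 2-fold; the T and innate lymphoid list, with 2 tested genes, is left out. The median of the mast cell and basophil list is -1.52 in MPP2 and -0.98 in ST-HSC cultures, and that of the monocyte and macrophage list is 0.67 and 0.69.

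The genes nearest to Il6 were found by the distance between their log2 levels, each centred on its own mean over the 4 libraries, among the 9106 genes whose mean reached 5 normalized counts. The 6 nearest were Asb2 (distance 0.615), Cpa3 (0.681), Il1rl1 (0.699), Mcpt8 (0.816), Akr1c18 (0.949) and F2r (0.988), and Lif ranked 7th at 1.00. Il1rl1, the IL-33 receptor ST2, had 38.3 normalized counts with 4OHT and 160.3 with EtOH in MPP2 cultures, and 5.46 with 4OHT and 11.3 with EtOH in ST-HSC cultures. Asb2, a ubiquitin ligase subunit, had 2.89 with 4OHT and 18.4 with EtOH in MPP2 cultures, and 0.791 with 4OHT and 1.18 with EtOH in ST-HSC cultures. All 6 are highest in MPP2 EtOH. Of the other cytokine genes measured this way, Il1a ranked 131st, Il1rn 143rd, Il1b 150th, Osm 212th, Tnf 3111th and Tgfb1 3252nd. A likeness over 4 libraries is a description only, and by Pearson correlation of the levels 0 of these 6 were among the nearest.

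**Figure D5:**
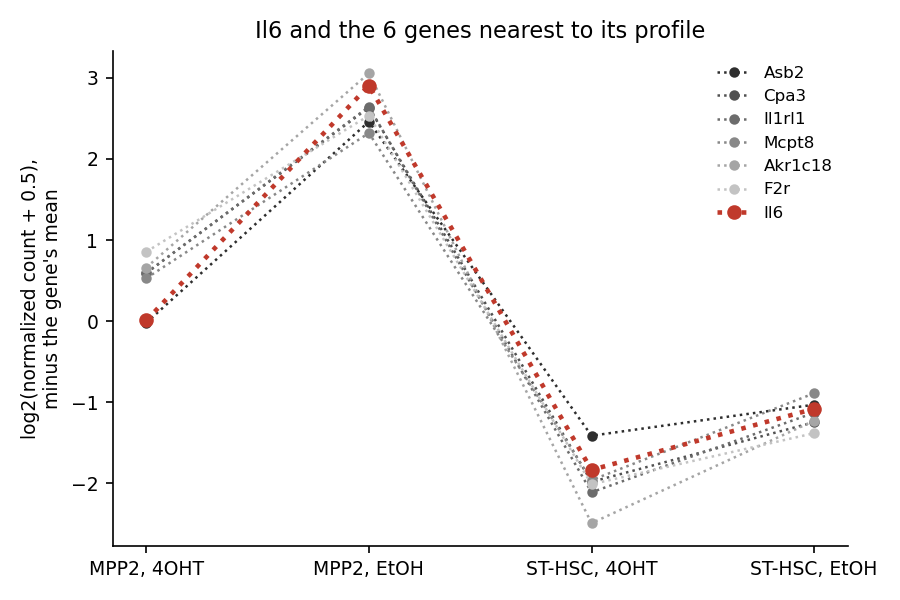
Centred log2 level of Il6 and of its 6 nearest genes in the 4 libraries (log2 of the normalized count plus 0.5, minus the gene's mean over the libraries); dotted lines only join the points of a gene. All 7 genes are highest in MPP2 EtOH, and the 6 lie within a distance of 0.988 of Il6.

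The cultures also differed by cell type. With 4OHT, 5 of the 10 cytokine genes were at least 2-fold higher in MPP2 than in ST-HSC cultures and 0 lower, where 5.39% of all genes were higher and 1.71% lower. With EtOH, 8 of 10 were at least 2-fold higher and 0 lower, where 6.27% of all genes were higher and 0.862% lower. Without Il4 and Il13, which passed the minimum level through the MPP2 EtOH library, these counts were 4 of 8 and 6 of 8, and scaling to the column total gave 4 of 10 with 4OHT, Il1a falling just inside 2-fold. The EtOH comparison uses the same MPP2 EtOH library as the 4OHT comparison in MPP2 cultures, so both rest on it. For Il6 the MPP2 over ST-HSC ratio was 4.37 with 4OHT (2.74 to 7.24) and 18.2 with EtOH (13.5 to 25.1). For Osm it was 0.907 with 4OHT (0.835 to 0.986) and 2.13 with EtOH (2.01 to 2.27). For Il1rn it was 2.55 with 4OHT (2.38 to 2.72) and 5.88 with EtOH (5.40 to 6.41), and Tnf and Tgfb1 stayed between 1.13 and 1.35 in both arms.

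The effect that both cell types share was fitted with limma on cell type and treatment over the 4 libraries, which leaves 1 residual degree of freedom. It called 0 of the 10 cytokine genes at a Benjamini-Hochberg adjusted p under 0.05. An unadjusted limma p under 0.05 was found for 6 of them, Il4 and Il13 included, and for 1615 of all 11370 tested genes. Over all genes the limma fit called 5 as higher (0.044%) and 1 as lower (0.0088%). Il6 had a shared log2 effect of -1.82 with a standard error of 0.50 and an adjusted p of 0.227 (limma), and was lower in 2 of 2 cell types. Il13 had -1.50 with an adjusted p of 0.143 and Lif -1.36 with 0.265 (limma). With a mean-variance trend limma called 5 of the 10 genes, Il6 (adjusted p = 0.00496), Lif (0.0122), Osm (0.0146), Il13 (0.0174) and, as higher, Tnf (0.0337), where 2.96% of all genes were called higher and 2.3% lower. The quasi-likelihood test of edgeR on whole reads called Il6 (adjusted p = 0.00245), Il13 (0.00456), Lif (0.0148), Il4 (0.0156) and Osm (0.0474), all lower, and 2.47% of all genes higher and 1.86% lower. The Il4 and Il13 calls are no independent support, since both genes passed the minimum level through the MPP2 EtOH library, and Il4 had 3 and 5 reads in ST-HSC cells with 4OHT and EtOH. These calls depend on the test. Each fit assumes the same 4OHT effect in both cell types, and its residual is the difference of that effect between them. For Il6 the log2 difference was -2.90 in MPP2 and -0.75 in ST-HSC cultures. The p-values therefore do not measure the spread between replicate cultures.

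The receptor genes of these cytokines lay mostly within 2-fold. For this and the following lists, the shares over all tested genes were 1.32% higher and 1.7% lower in MPP2 cultures. For ST-HSC cultures they were 2.1% higher and 0.545% lower. Of 13 receptor genes tested, 0 passed 2-fold in MPP2 cultures and 1, Il1r1, was higher in ST-HSC cultures, with 6.11 normalized counts with 4OHT and 2.36 with EtOH. The median log2 difference of the receptor list was 0.35 in MPP2 and 0.37 in ST-HSC cultures, beside -0.002 and -0.004 over all genes. Tnfrsf1b, a TNF receptor and the most abundant of the list, had 501 normalized counts with 4OHT and 307 with EtOH in MPP2 cultures, and 319 with 4OHT and 238 with EtOH in ST-HSC cultures. Il6st, the gp130 chain, had 22.8 with 4OHT and 11.8 with EtOH in MPP2 cultures, and 50.2 with 4OHT and 30.8 with EtOH in ST-HSC cultures. Lifr was under the minimum level and was not tested.

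Among 21 other secreted cytokines tested, 2 were higher and 0 lower in MPP2 cultures (Tnfsf12 and Tnfsf8). In ST-HSC cultures 1 was higher, Tnfsf12. Tnfsf8 had 22 reads with 4OHT and 7 with EtOH in MPP2 cultures. It would not have reached the minimum level without the MPP2 4OHT library, so its higher level there is no independent support. Tnfsf12 (TWEAK) had 16.5 normalized counts with 4OHT and 7.72 with EtOH in MPP2 cultures, and 9.85 with 4OHT and 3.76 with EtOH in ST-HSC cultures, but 47.4% of its 31-base words occur in other genes, so its reads are uncertain. Grn, the growth factor progranulin, was the most abundant of the list, with 813 with 4OHT and 571 with EtOH in MPP2 cultures, and 585 with 4OHT and 448 with EtOH in ST-HSC cultures.

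Genes that process or release the cytokines had 2 of 15 lower in MPP2 cultures and 1 in ST-HSC cultures. Thbs1, a matrix protein that can activate latent TGF-beta, had 500.1 normalized counts with 4OHT and 1453 with EtOH in MPP2 cultures, and 298 with 4OHT and 1238 with EtOH in ST-HSC cultures. Nlrp3, the inflammasome sensor that leads to cleavage of pro-IL-1b, had 31.8 with 4OHT and 73.8 with EtOH in MPP2 cultures, and 28.7 with 4OHT and 39.6 with EtOH in ST-HSC cultures. Of 20 genes of signal transduction, JAK, STAT and SMAD genes among them, 0 passed 2-fold in either cell type, and Jak1, the most abundant, had ratios of 0.957 and 0.929 in MPP2 and ST-HSC cultures.

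Response genes were mixed. Of 12 genes known to be induced through gp130 and STAT3, 2 were higher in MPP2 and 1 in ST-HSC cultures, and 0 were lower in either. Saa3, an acute-phase gene, had 51.5 normalized counts with 4OHT and 13.1 with EtOH in MPP2 cultures, and 62.2 with 4OHT and 16.0 with EtOH in ST-HSC cultures. Hp, haptoglobin, had 507 with 4OHT and 228 with EtOH in MPP2 cultures, and 413 with 4OHT and 327 with EtOH in ST-HSC cultures. Pim1, a kinase gene and the most abundant of the list, had ratios of 1.04 in MPP2 and 0.989 in ST-HSC cultures.

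Of 11 genes induced through STAT6, 1 was higher and 1 lower in MPP2 cultures, and 1 was higher in ST-HSC cultures. Mrc1 had 99.2 normalized counts with 4OHT and 32.6 with EtOH in MPP2 cultures, and 83.3 with 4OHT and 30.0 with EtOH in ST-HSC cultures. Arg1, arginase, had 1.36 with 4OHT and 9.09 with EtOH in MPP2 cultures, and 0.862 with 4OHT and 2.16 with EtOH in ST-HSC cultures, and it is named here after its values were seen. Chil3, the most abundant of this list, had ratios of 1.02 in MPP2 and 0.919 in ST-HSC cultures, and 41.5% of its 31-base words are shared with other genes.

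Of 17 genes induced through NF-kB, 3 were higher and 4 lower in MPP2 cultures, while 5 were higher and 0 lower in ST-HSC cultures. Ptgs2, the inducible cyclooxygenase, had 3.45 normalized counts with 4OHT and 25.1 with EtOH in MPP2 cultures, and 7.55 with 4OHT and 8.14 with EtOH in ST-HSC cultures. Ccl3, a chemokine, had 208 with 4OHT and 471 with EtOH in MPP2 cultures, and 173 with 4OHT and 211 with EtOH in ST-HSC cultures. Ccl2, the monocyte chemoattractant, had 70.3 with 4OHT and 31.03 with EtOH in MPP2 cultures, and 79.99 with 4OHT and 7.86 with EtOH in ST-HSC cultures. Ptgs2 and Ccl3 therefore shared the high MPP2 EtOH library with Il6, and Ccl2 was lowest in ST-HSC EtOH. The neutrophil chemoattractant Cxcl2 had ratios of 0.437 and 1.11, and the chemokine Ccl4 of 0.694 and 2.05, in MPP2 and ST-HSC cultures. Relb, an NF-kB subunit, was 2.11-fold and 2.17-fold higher in MPP2 and ST-HSC cultures, and Icam1, an adhesion molecule, was 1.86-fold and 2.05-fold higher.

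Of 10 genes induced by TGF-beta, 1 was higher and 2 lower in MPP2 cultures, and 1 was higher and 1 lower in ST-HSC cultures. Tgfbi had 216 normalized counts with 4OHT and 85.6 with EtOH in MPP2 cultures, and 236 with 4OHT and 110.5 with EtOH in ST-HSC cultures, the opposite direction to Thbs1. The 12 regulators of cytokine mRNA decay, such as Zfp36 (tristetraprolin) and Zc3h12a (regnase-1), had 0 genes past 2-fold in either cell type. Pcbp2, the most abundant, had ratios of 1.12 and 0.992, Zfp36 of 1.00 and 0.917, and Zc3h12a of 1.498 and 1.21, in MPP2 and ST-HSC cultures.

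Of 20 transcription factors known to act on these cytokine genes, 1 was higher and 4 lower in MPP2 cultures (Egr1, Gata1, Gata2 and Irf4 were lower), and 1 was higher and 2 lower in ST-HSC cultures. Gata2, a factor of mast cells, basophils and progenitors that is also on the mast cell list, had 71.2 normalized counts with 4OHT and 206 with EtOH in MPP2 cultures, and 14.2 with 4OHT and 25.3 with EtOH in ST-HSC cultures. Egr1, an immediate-early factor, had 54.5 with 4OHT and 158 with EtOH in MPP2 cultures, and 58.5 with 4OHT and 73.3 with EtOH in ST-HSC cultures. Spi1 (PU.1), the most abundant of the list, had ratios of 1.21 in MPP2 and 1.03 in ST-HSC cultures.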

How the data were processed

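RNA was extracted from colony cells, and rRNA-depleted, strand-specific MGIEasy libraries were made from 200 ng of total RNA, per the labels' protocols. The submitters' processing notes list the mm10 build, edgeR, RSEM, Bowtie2 and Trimmomatic 0.36, with no role for each. The authors deposited a normalized signal per gene in 1 table, with 1 column per library. All 57292 values lie within 1e-06 of a whole multiple of their column's smallest step, so whole reads were recovered. The lowest summed count was 4 reads. Log2 differences were taken after adding 0.5, over 11370 genes with a mean of at least 1. The shared effect was fitted with limma 3.58.1 and, on the recovered reads, edgeR 4.0.16 (R 4.3.3). Ratio intervals are exact 95% intervals on reads. Positions come from GENCODE on GRCm38, sequences from RefSeq (GRCm38.p6). The 10 genes and 16 further lists were chosen with earlier results of these data known. Besides the 10 genes, the text names in each list the member with the highest mean and up to 4 members past 2-fold that reached 10 normalized counts in 1 of the paired libraries, and the 6 genes nearest to Il6. Kit, Flt3, Slamf1, Kmt2a, Mllt1, Il6st, Lifr, Il1r1, Tnfsf8, Irf4, Arg1, Zfp36 and Zc3h12a are outside that rule and were chosen after their values were seen. Alternatives were other scalings, added constants, filters, likeness measures and tests, and, chosen after seeing the data, the removal of a GC trend in 20 bins.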

Additional observations from a re-analysis of the deposited data

Results flagged for a closer look

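The 3 IL-1 genes had 4OHT differences of opposite sign in the cell types, each from 1 pair of libraries, and the difference between the cell types was not tested. For Il1a the log2 difference was -0.43 in MPP2 and 0.92 in ST-HSC cultures, an MPP2 minus ST-HSC value of -1.36, but the MPP2 value was -0.12 with the GC trend removed. For Il1b it was -0.49 and 0.16, an MPP2 minus ST-HSC value of -0.65, and the ST-HSC counting interval includes no difference. For Il1rn it was -0.19 and 1.01, an MPP2 minus ST-HSC value of -1.20, and the MPP2 value was -0.04 with the GC trend removed.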

How the results depend on the processing

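The 5 genes called lower in MPP2 cultures (Il6, Il4, Il13, Lif and Osm) stayed past 2-fold under every alternative run, except that a mean of at least 5 leaves Il4 and Il13 untested and so gives 3. Over the alternatives the MPP2 log2 differences were -2.96 to -2.51 for Il6, -3.47 to -2.31 for Il4, -2.28 to -1.93 for Il13, -2.36 to -2.20 for Lif and -1.60 to -1.47 for Osm. With 0.1 added, 108 genes and 1 cytokine gene (Il13) were lower in ST-HSC cultures and 149 genes were lower in MPP2 than ST-HSC cells with EtOH, and with 1 added 30 were lower in ST-HSC cultures, where 62, 0 and 98 were the values with 0.5. With a mean of at least 5 fewer genes are tested: 83 were higher and 79 lower in MPP2 cultures, 125 higher and 30 lower in ST-HSC cultures, 370 higher and 113 lower in MPP2 than ST-HSC cells with 4OHT, and 400 and 61 with EtOH; of the cytokine genes 4 and 6 were then higher in MPP2 than ST-HSC cells with 4OHT and EtOH. With the GC trend removed, which could be done for 96.2% of tested genes, 2 cytokine genes were higher in ST-HSC cultures, Il1a joining at 1.03. The shared effect was called for 6 genes in all, and for 0 with 0.1 added, 92 with 1 added, 0 without a filter, 230 with a mean of at least 5, 598 with a mean-variance trend, 492 with edgeR, and 0 under each of the other 3 scalings; the cause was not tested. Of the cytokine genes, 5 were called with the trend and 5 with edgeR. By Pearson correlation 0 of the 6 genes nearest to Il6 were the same. The fits of the shared effect set each 4OHT library against the EtOH library of its cell type, and no pairing by replicate number exists because each group has 1 library. Levels of a few reads, as for Il4 and Il13 in ST-HSC cells, limit what can be detected.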
